A study of Mus musculus with 12 samples.

Results

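The mitochondrial ribosomal proteins were examined in subcutaneous white adipose tissue (scWAT), the fat under the skin. Protein-coding genes whose symbol starts with Mrpl or Mrps followed by a number were taken. Symbols could be matched to 32589 of the 55401 identifiers counted in each library, and 77 of these genes met the rule, while Mrpl33 was not matched and was not analysed here. Of these, 48 carry an Mrpl symbol and 29 an Mrps symbol, and 5 pseudogenes with such a symbol were left out. Sorted by where the protein sits in known structures of the mammalian mitoribosome, 50 encode proteins of the large subunit and 26 proteins of the small subunit. The symbol and the place differ for Mrps18a and Mrps30, whose proteins belong to the large subunit, and for Mrps36, whose protein is a subunit of the 2-oxoglutarate dehydrogenase complex and not of the ribosome. RNA-seq was performed on 12 female mice, 16 weeks old when the treatment began, with 1 mouse per library and 3 mice in each of 4 groups. The groups were wild-type (WT, Jmjd1a +/+) and homozygous Jmjd1a HY/HY (HY/HY) mice held at 30°C, which is thermoneutral for a mouse, and mice of both genotypes held at 8°C, each for 1 week and after a period at 30°C that all groups shared. The HY allele is a germline substitution that removes the histone demethylase activity of JMJD1A in every tissue of the mouse, so that the fat cells are not the only cells affected.

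The mitoribosome is the ribosome inside mitochondria. It translates the messenger RNAs of mitochondrial DNA, which encode subunits of the oxidative phosphorylation (OXPHOS) complexes. Its proteins are encoded by nuclear genes, made in the cytosol and imported, whereas its ribosomal RNAs, mt-Rnr1 in the small and mt-Rnr2 in the large subunit, are transcribed from mitochondrial DNA inside the organelle. Some of its proteins have bacterial homologues, and others were acquired by the mitochondrial ribosome alone. In cold-exposed mice, scWAT gains beige adipocytes, which are rich in mitochondria and make heat.

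Counts on the sense strand summed to between 13592629 and 26352081 pairs per library (median 18130585), of which the 77 genes held 45886 to 93936. Levels are given as CPM, the counts divided by library sizes that were scaled by the TMM method and brought to a common total, and differences as log2 fold changes with their SE from edgeR's quasi-likelihood fit to all 12 libraries. A gene was called at a Benjamini-Hochberg adjusted p under 0.05, over the 16540 genes tested, and a fold above 1.5 or below 0.67. The white adipocyte markers summed to at least 22006 CPM in every library, as the tissue label has it. The 7 beige adipocyte markers summed to 76.5 to 201 CPM in WT mice at 30°C and 8348 to 9266 CPM at 8°C, and to 65.4 to 242 CPM and 533 to 1680 CPM in HY/HY mice. All 7 were higher at 8°C in WT mice, and 6 were lower in HY/HY mice at 8°C. The part of a change in cell makeup in the differences below was not tested, and in bulk tissue fewer cells of a type and less RNA per cell cannot be told apart. In the marker sums 2 libraries stood apart. WT replicate 2 at 30°C held 1498 CPM of 8 summed skeletal muscle markers, against at most 24.6 CPM in the other libraries. HY/HY replicate 3 at 30°C held 527 CPM of summed mammary epithelium markers against 1400 and 1466 CPM in the other mice of its group, 48349 CPM of white adipocyte markers against 29868 and 22006 CPM, and 16.8% of its counts on genes of mitochondrial DNA against 9.32% and 9.76%. The mammary epithelium markers summed to 2047 to 3682 CPM in WT mice at 30°C. At 8°C they summed to 1371 to 1513 CPM in WT and 879 to 1295 CPM in HY/HY mice, without overlap. Of the 6 tested, 0 were called between the genotypes at 8°C. Their median log2 fold change there was 0.40, so that the sum was lower in HY/HY mice and the median marker higher. Kdm3a, the gene of JMJD1A, had group means of 39.9 to 49.3 CPM with no call between the genotypes (edgeR adjusted p = 0.75 at 30°C and 0.60 at 8°C), and the counts do not tell the HY allele from the wild-type one.

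Of the 77 genes, 76 had enough counts to be tested. The remaining gene, Mrpl53 (chr6:83109108-83109932, mm10), had 0 counts in all 12 libraries, and 0 on the opposite strand. Pairs that match several places or more than 1 gene are absent from the counts. Whether this applies to Mrpl53 was not tested, so the 0 does not show that its RNA is absent. The 76 genes lie on 17 chromosomes, with at most 11 on any of them, and their mean levels over the 12 libraries ran from 18.4 to 153 CPM. Per kilobase of the longest protein-coding transcript, levels ran from 3.88 to 149 CPM per kb with a median of 35.8. The highest levels per kb were those of Mrps21 (149), Mrpl42 (146), Mrpl20 (131), Mrpl12 (117) and Mrpl52 (109). The lowest were those of Mrpl35 (9.08), Mrpl1 (7.78), Mrpl47 (7.12), Mrps25 (5.84) and Mrpl19 (3.88). The order depends on the transcript length chosen, and with it the 38.4-fold range. With the union of all exons as the length, Mrps21 fell from rank 1 to rank 8, and the ranks under both choices had a Spearman correlation of 0.81 across genes.

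The genes of the mitoribosome were higher in the cold in WT mice, over nearly the whole set and in both subunits. Summed over the large subunit, the level was 1900, 1931 and 2400 CPM in the WT mice at 30°C and 3546, 3605 and 3735 CPM at 8°C, so that the groups were apart. Summed over the small subunit, it was 853, 870 and 1058 CPM at 30°C and 1507, 1596 and 1659 CPM at 8°C. The ratio of the summed large to the summed small subunit was 2.24 ± 0.0255 (SD, n = 3) at 30°C and 2.29 ± 0.0563 at 8°C, with overlapping ranges.

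**Figure D1:**
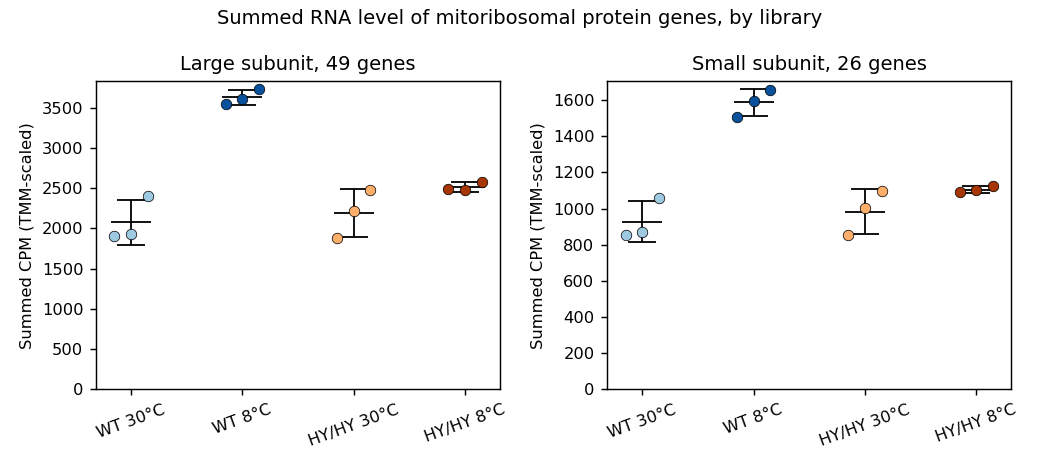
Summed level of the 49 tested large subunit genes (left) and the 26 small subunit genes (right), in CPM on TMM-scaled library sizes, for each of the 12 libraries. Points are mice, horizontal bars are group means and error bars are SD of 3 mice. The WT mice at 8°C lie above all other mice in both panels.

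Cold raised 51 of the 76 genes in WT mice and lowered 0, where 10.3% of all genes tested were called higher and 6.93% lower. At an adjusted p under 0.05 without the fold limit, 66 were higher, against 13.2% of all genes. For 69 genes all 3 mice at 8°C were above all 3 at 30°C, which held for 20.7% of all genes. DESeq2 called 56 higher and 0 lower. At an unadjusted p under 0.05 edgeR had 70 higher and 0 lower, against 3016 and 3335 of all 16540 genes. The median log2 fold change of the 76 genes was 0.75, a fold of 1.69, and that of all genes was −0.07. Of the large subunit genes 31 of 49 rose with a median of 0.73, and of the small subunit genes 19 of 26 with a median of 0.80. The proteins with a bacterial homologue (31 of 45 higher, median 0.76) and those particular to mitochondria (19 of 30 higher, median 0.73) had like medians. The Spearman correlation across the 76 genes between the log2 fold change and the mean level was 0.01. Without WT replicate 2 at 30°C, 49 genes were called higher, and with raw library totals in place of TMM factors 26. That scaling moved the median of all genes from −0.07 to −0.41, and the 76 genes stayed 0.83 above it.

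**Figure D2:**
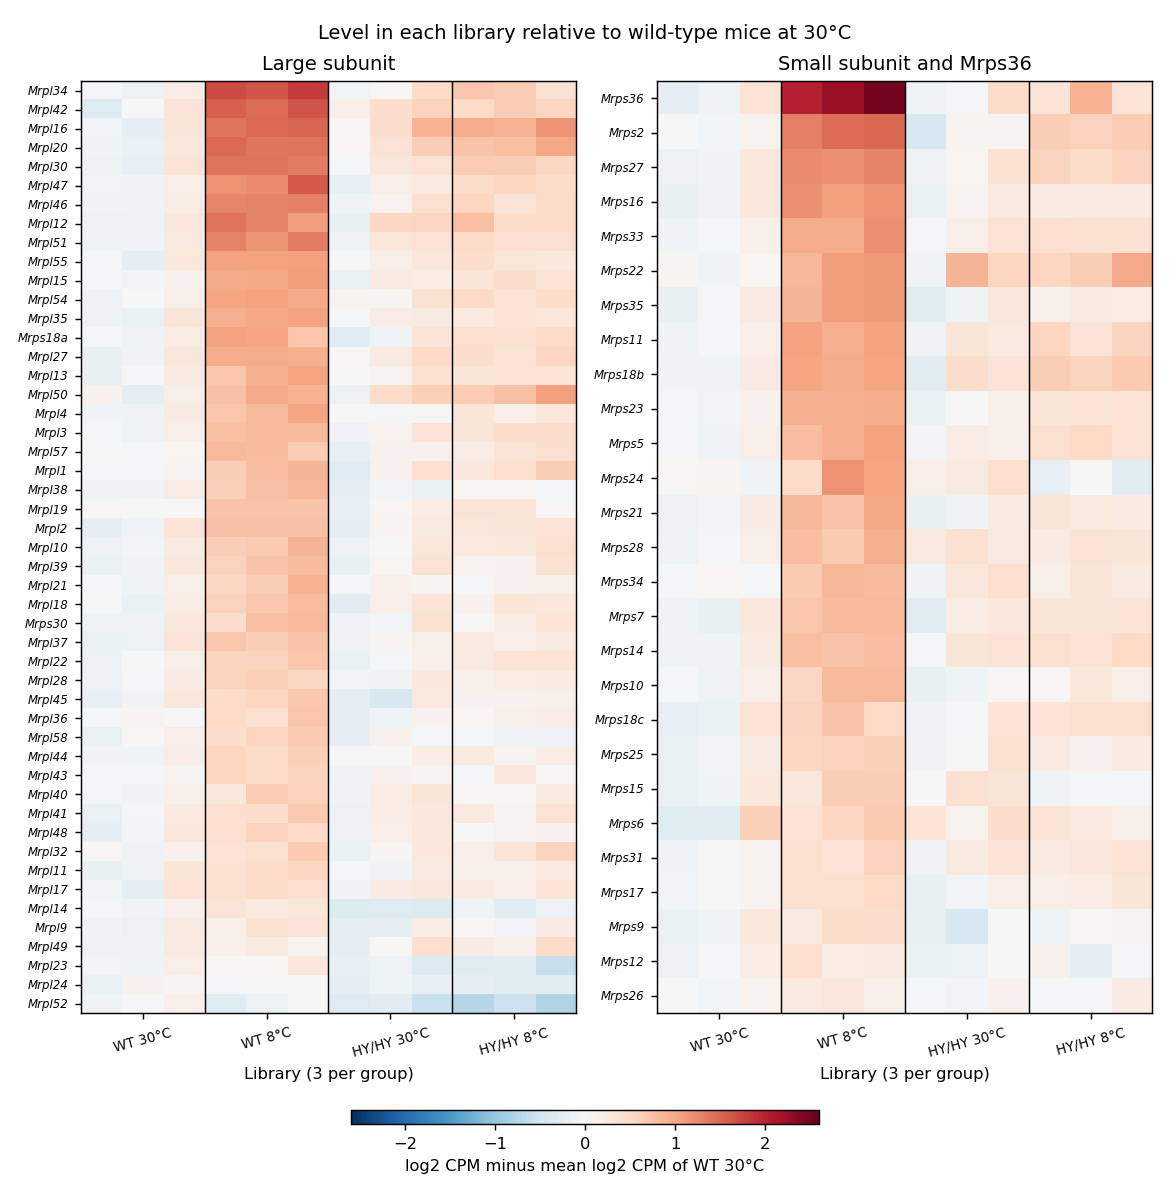
Level of each of the 76 genes in each library, as log2 CPM minus the mean log2 CPM of the 3 WT mice at 30°C. Columns are the 12 libraries in 4 groups of 3, and rows are genes of the large subunit (left) and of the small subunit with Mrps36 (right), sorted by the cold response of WT mice. Red marks values above and blue values below the WT mean at 30°C. The 3 WT mice at 8°C are the reddest columns in both panels. Mrpl24 and Mrpl52, in the last rows of the left panel, show little or no red.

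The gene with the strongest response was Mrps36 (ENSMUSG00000061474.11, chr13:100735940-100744659), whose protein anchors the E3 component in the 2-oxoglutarate dehydrogenase complex of the citric acid cycle. Mrps36 had 12.5, 13.3 and 18.8 CPM in WT mice at 30°C and 58.4, 69.6 and 81.7 CPM at 8°C. Its groups were far apart, with a log2 fold change of 2.24 ± 0.23 (SE, edgeR adjusted p = 7.0e-05). Among true ribosomal proteins the strongest was Mrpl34 (chr8:71464926-71465753), a small protein of the large subunit with a bacterial homologue. Mrpl34 had 20.3, 18.9 and 24.1 CPM at 30°C and 68.0, 65.2 and 73.8 CPM at 8°C, without overlap. Its log2 fold change was 1.71 ± 0.16 (edgeR adjusted p = 4.3e-05). Mrpl42 (chr10:95480805-95501949), a large subunit protein with no bacterial homologue, had 45.6, 57.6 and 72.1 CPM at 30°C against 169, 157 and 179 CPM at 8°C. It was also among the most abundant per length, and its log2 fold change was 1.52 ± 0.16 (edgeR adjusted p = 8.0e-05).

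Next came Mrpl16 and Mrpl20, large subunit proteins with bacterial homologues, with log2 fold changes of 1.44 ± 0.20 and 1.42 ± 0.16 and edgeR adjusted p of 0.00048 and 0.00011. The strongest response in the small subunit, and the lowest adjusted p of all 76 genes, was that of Mrps2 (chr2:28465951-28471177), a homologue of bacterial protein S2. Mrps2 had 29.6, 28.3 and 32.0 CPM at 30°C and 73.9, 81.6 and 83.8 CPM at 8°C in WT mice. The log2 fold change was 1.41 ± 0.13 (edgeR adjusted p = 4.2e-05). The 8 genes with the lowest adjusted p also held Mrps23, Mrpl15, Mrpl46 and Mrpl54, all with the groups apart. The log2 fold changes were those of Mrps23 (0.94 ± 0.10), a mitochondria-specific protein of the small subunit, and 3 of the large subunit, Mrpl15 (1.03 ± 0.11), Mrpl46 (1.29 ± 0.14), which lies in the central protuberance, and Mrpl54 (1.01 ± 0.11). Their edgeR adjusted p lay between 6.9e-05 and 0.0001.

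The genes were also grouped by position in the ribosome, without a test between positions. Of the stalk proteins, which recruit translation factors to the large subunit, Mrpl12 rose most, from 88.9, 90.6 and 121 CPM to 264, 241 and 211 CPM (log2 fold change 1.25 ± 0.20, edgeR adjusted p = 0.0013). Mrpl10 rose by 0.73 ± 0.14, whereas Mrpl11 had a log2 fold change of 0.46 ± 0.14, past the threshold on p (edgeR adjusted p = 0.028) but under the fold limit. Of 9 genes of the central protuberance, the top of the large subunit, 5 were called higher with a median of 0.69. Of 8 genes on the side of the peptide exit tunnel, 3 were called higher with a median of 0.56. Mrpl45, whose protein ties the ribosome to the inner membrane, had a log2 fold change of 0.57 ± 0.17 (edgeR adjusted p = 0.030), under the fold limit. The 3 paralogs of bacterial protein S18 all rose: Mrps18b by 1.00 ± 0.16, Mrps18a, which sits in the large subunit, by 0.94 ± 0.16, and Mrps18c by 0.59 ± 0.17. Mrps30, the other large subunit protein with an Mrps symbol, rose by 0.69 ± 0.17.

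Of the 25 genes not called, 15 had an adjusted p under 0.05 but a fold under 1.5, and 10 did not pass the test: Mrpl9, Mrpl17, Mrpl23, Mrpl24, Mrpl49, Mrpl52, Mrps6, Mrps9, Mrps12 and Mrps26. The lowest values were those of Mrpl52 and Mrpl24, both well expressed. Mrpl52 (chr14:54426909-54429750), in the central protuberance, had 50.9, 53.8 and 59.8 CPM at 30°C and 44.0, 49.6 and 55.3 CPM at 8°C, with overlap and a log2 fold change of −0.14 ± 0.12 (edgeR adjusted p = 0.40). Mrpl24 (chr3:87918131-87923450), at the tunnel exit, had 103, 124 and 121 CPM and 111, 115 and 117 CPM, with a log2 fold change of −0.02 ± 0.10 (edgeR adjusted p = 0.91). The sign of Mrpl24 turned under several other settings, so no direction is given for it. Mrpl23 (0.12 ± 0.12) and Mrpl49 (0.15 ± 0.17) also lay near 0.

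Promoters were compared between the strongest and the weakest responders, since the letters a group of co-moving genes shares can be read from the reference. The windows are RefSeq's for assembly GRCm38.p6, from 250 bases before to 50 bases after an annotated start, and were found for 67 of the 76 tested genes. Exact matches on both strands were counted for 5 motifs of factors known to act on nuclear genes for mitochondrial proteins or on growth genes: NRF1 (GCGCANGC), ETS factors including GABPA (CCGGAAG), ERR (CAAGGTCA), YY1 (AAGATGGC) and the E-box (CACGTG). The letters of ETS and YY1 can share bases, which happened in 0 windows of the 67 genes. The 250 bases before the start are shown for the 3 genes with the highest and the 3 with the lowest WT cold response among genes with a window, all on the strand of the gene, with the matched motifs in capitals. For Mrpl23 and Mrpl24 the start used by the window lies inside the gene's annotated span, so that bases before the outermost start were not searched for these 2 genes. Mrps36 is shown from chr13:100744660-100744909 (− strand), Mrpl34 from chr8:71464676-71464925 (+ strand), Mrpl42 from chr10:95501950-95502199 (− strand), Mrpl23 from chr7:142532782-142533031 (+ strand), Mrpl24 from chr3:87919294-87919543 (+ strand) and Mrpl52 from chr14:54426659-54426908 (+ strand).
Mrps36: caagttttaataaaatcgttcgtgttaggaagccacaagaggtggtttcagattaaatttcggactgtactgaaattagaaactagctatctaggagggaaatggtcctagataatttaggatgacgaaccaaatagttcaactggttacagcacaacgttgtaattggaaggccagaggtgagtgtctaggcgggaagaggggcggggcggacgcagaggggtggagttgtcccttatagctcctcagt
Mrpl34: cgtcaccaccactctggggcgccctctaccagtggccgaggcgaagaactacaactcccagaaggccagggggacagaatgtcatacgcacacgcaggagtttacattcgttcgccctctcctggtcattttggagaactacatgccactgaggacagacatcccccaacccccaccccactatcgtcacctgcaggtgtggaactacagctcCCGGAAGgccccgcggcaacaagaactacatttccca
Mrpl42: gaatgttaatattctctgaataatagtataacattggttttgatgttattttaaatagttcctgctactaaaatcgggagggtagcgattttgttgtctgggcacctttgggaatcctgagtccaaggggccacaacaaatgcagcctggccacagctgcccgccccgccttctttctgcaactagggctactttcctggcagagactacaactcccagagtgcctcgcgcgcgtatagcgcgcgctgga
Mrpl23: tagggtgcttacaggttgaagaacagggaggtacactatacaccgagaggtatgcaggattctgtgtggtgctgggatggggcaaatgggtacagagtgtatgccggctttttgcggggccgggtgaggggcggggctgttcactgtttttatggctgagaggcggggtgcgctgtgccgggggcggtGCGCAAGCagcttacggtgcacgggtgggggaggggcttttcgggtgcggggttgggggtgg
Mrpl24: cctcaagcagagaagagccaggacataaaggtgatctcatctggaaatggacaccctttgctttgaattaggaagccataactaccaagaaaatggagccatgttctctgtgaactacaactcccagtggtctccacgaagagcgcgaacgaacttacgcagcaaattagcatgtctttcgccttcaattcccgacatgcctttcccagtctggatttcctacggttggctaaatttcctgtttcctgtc
Mrpl52: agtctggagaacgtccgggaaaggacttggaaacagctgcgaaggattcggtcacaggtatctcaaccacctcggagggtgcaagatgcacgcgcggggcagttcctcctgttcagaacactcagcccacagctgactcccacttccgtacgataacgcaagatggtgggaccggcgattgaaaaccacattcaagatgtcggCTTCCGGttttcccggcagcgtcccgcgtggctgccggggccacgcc

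In these stretches Mrpl34 and Mrpl52 each held an ETS motif, 37 and 47 bases before the start, and Mrpl23 an NRF1 motif 62 bases before it, so that the ETS letters stood before both a high and a low responder. The YY1 motif of Mrpl42 and a further ETS motif of Mrpl52 lie after the start and outside the bases shown, and no match to the 5 motifs was found in the windows of Mrps36 and Mrpl24. Over all 67 genes the ETS motif was found in 24 (35.8%), against 18.6% of the tested genes and 9.93% of all genes with a window. The NRF1 motif was found in 21 (31.3%), against 21.0% and 11.2%. The YY1 motif was found in 12 (17.9%), against 4.89% and 3.19%. The E-box was found in 5 (7.46%), against 11.4% and 8.09%, and the ERR motif in 2 (2.99%), against 1.36% and 1.76%. The median GC content was 58.7% in the windows of the 67 genes, 60.3% in those of all tested genes and 52.7% in those of all genes. The median log2 fold change by cold in WT mice was 0.79 with and 0.71 without an ETS motif, 0.57 with and 0.79 without an NRF1 motif, and 0.85 with and 0.71 without a YY1 motif. These shares and medians are descriptions of letters in a window and were not tested.

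In HY/HY mice, no gene of the set was called between 8°C and 30°C. For replicates 1, 2 and 3 the summed large subunit was 1877, 2218 and 2475 CPM at 30°C and 2488, 2472 and 2581 CPM at 8°C, and the summed small subunit 853, 1002 and 1097 CPM and 1090, 1102 and 1126 CPM. The groups overlapped. The 8°C value was the higher one for each replicate number in both subunits, but the numbers belong to different mice and the titles state no pairing. The counts by edgeR were 0 higher and 0 lower of 76, where 0.181% of all genes were called higher and 0.0665% lower. At an unadjusted p under 0.05, 21 were higher and 2 lower, against 1266 and 1160 of all 16540 genes. DESeq2 called 1 higher and 0 lower. The median log2 fold change was 0.21, with 66 values above 0, where 7907 of all 16540 genes had values above 0. For 25 genes all mice at 8°C were above all at 30°C, which held for 9.33% of all genes. The large subunit had a median of 0.19 and the small subunit 0.23. The replicate numbers of these mice met the rule for pairs given under the processing, and with the replicate number as a block the count was 1 higher in the fit to 12 libraries and 0 in the fit to the 6 libraries of these mice.

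Mrps2 came nearest to a call. Mrps2 had 22.3, 31.6 and 31.4 CPM at 30°C and 46.7, 45.1 and 47.5 CPM at 8°C in HY/HY mice, without overlap. The log2 fold change was 0.71 ± 0.13 (edgeR adjusted p = 0.051), and Mrps2 was the gene called by DESeq2 and under the block. Mrpl16 (0.51 ± 0.20) and Mrpl50 (0.48 ± 0.19), a mitochondria-specific protein of the large subunit, were next and were not called. At the other end, Mrps24, the homologue of bacterial protein S3, had 25.1, 26.2 and 30.0 CPM at 30°C and 19.2, 22.1 and 18.4 CPM at 8°C, with every mouse at 8°C below those at 30°C. Its log2 fold change was −0.44 ± 0.16 (edgeR adjusted p = 0.24). Mrps15 (−0.30 ± 0.15) and Mrpl52 (−0.29 ± 0.12) followed. Single libraries weighed on these values. Without HY/HY replicate 3 at 30°C, which stood apart in its markers and had the highest summed level of its group, 6 genes were called higher, namely Mrpl16, Mrpl20, Mrpl34, Mrps2, Mrps18a and Mrps27, and the median was 0.31. Without HY/HY replicate 1 at 30°C, which had the lowest summed level of its group, 0 genes were called and the median was 0.11.

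Set side by side, the cold responses of both genotypes, which share no library, rose together across genes but differed in size. Across the 76 genes the Pearson correlation was 0.60 and the Spearman correlation 0.65, a description across genes, which are not independent. The slope of the HY/HY response on the WT response was 0.29, and 75 of the 76 genes had the lower value in HY/HY mice. Over all genes the Pearson correlation was 0.53 and the slope 0.32, and 7545 of 16540 had the lower value in HY/HY mice.

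**Figure D3:**
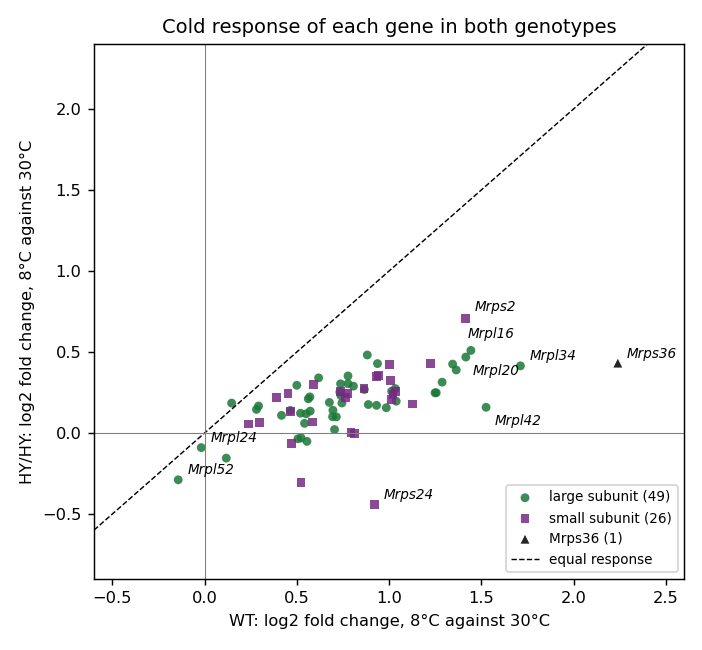
Log2 fold change between 8°C and 30°C in WT mice (horizontal axis) and in HY/HY mice (vertical axis) for the 76 genes. Circles are large subunit genes, squares small subunit genes, the triangle is Mrps36, and the dashed line marks equal responses. All genes but 1 lie below the line, and Mrps24 has the lowest HY/HY value (−0.44).

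Whether the cold responses themselves differed was tested by the interaction, the HY/HY response less the WT response. It was negative at an adjusted p under 0.05 for 18 of 76 genes and positive for 0, where 2.07% of all genes were called negative and 0.169% positive. An unadjusted p under 0.05 was met by 54 genes, all of them negative, where 1590 of all 16540 genes were negative and 891 positive. DESeq2 called 33 negative and 0 positive. The median was −0.55, where that of all genes was 0.04. The 18 were 11 of the large subunit, 6 of the small subunit and Mrps36, and each of them was also among the 51 genes raised by cold in WT mice. The interaction subtracts that WT response and uses the same WT mice, so this overlap is not independent. Among the 18, the most negative values were those of Mrps36 (−1.81 ± 0.32, edgeR adjusted p = 0.017), Mrpl42 (−1.37 ± 0.22, adjusted p = 0.013 by edgeR), Mrps24 (−1.36 ± 0.22, adjusted p = 0.013 by edgeR), Mrpl34 (−1.30 ± 0.22, adjusted p = 0.015 by edgeR) and Mrpl51 (−1.0 ± 0.20, adjusted p = 0.029 by edgeR), a mitochondria-specific protein of the large subunit. Mrpl12 had a value as low (−1.01) but a wider SE and was not called (edgeR adjusted p = 0.099). At the other end, Mrpl49 (0.04 ± 0.24), Mrpl24 (−0.07 ± 0.14) and Mrpl14 (−0.13 ± 0.13) lay near 0. With library totals 8 were called and with the replicate number as a block 28. The number of calls also depended on single libraries. It was 0 without HY/HY replicate 1 at 8°C, 9 without HY/HY replicate 3 at 30°C, 30 without WT replicate 3 at 30°C, 34 without HY/HY replicate 1 at 30°C, and 1 to 5 when any other single library was left out. None of the 18 was called under every setting, whereas the median stayed negative under all of them, from −0.67 to −0.34.

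Mrps24 had log2 fold changes of opposite sign in the genotypes, of which that of the WT mice passed the test. Mrps6, Mrps15, Mrps28, Mrpl23, Mrpl40, Mrpl48 and Mrpl58 also had values above 0 in WT and below 0 in HY/HY mice. The HY/HY value of Mrps24 was the lowest, followed by Mrps15 (−0.30). In WT mice Mrps24 had 22.7, 23.3 and 20.8 CPM at 30°C and 31.3, 49.7 and 45.5 CPM at 8°C, a log2 fold change of 0.92 ± 0.16 (edgeR adjusted p = 0.0018). In HY/HY mice the same gene had the lower values at 8°C given above, and that difference did not pass the test. Its protein lies where the messenger RNA enters the small subunit.

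**Figure D4:**
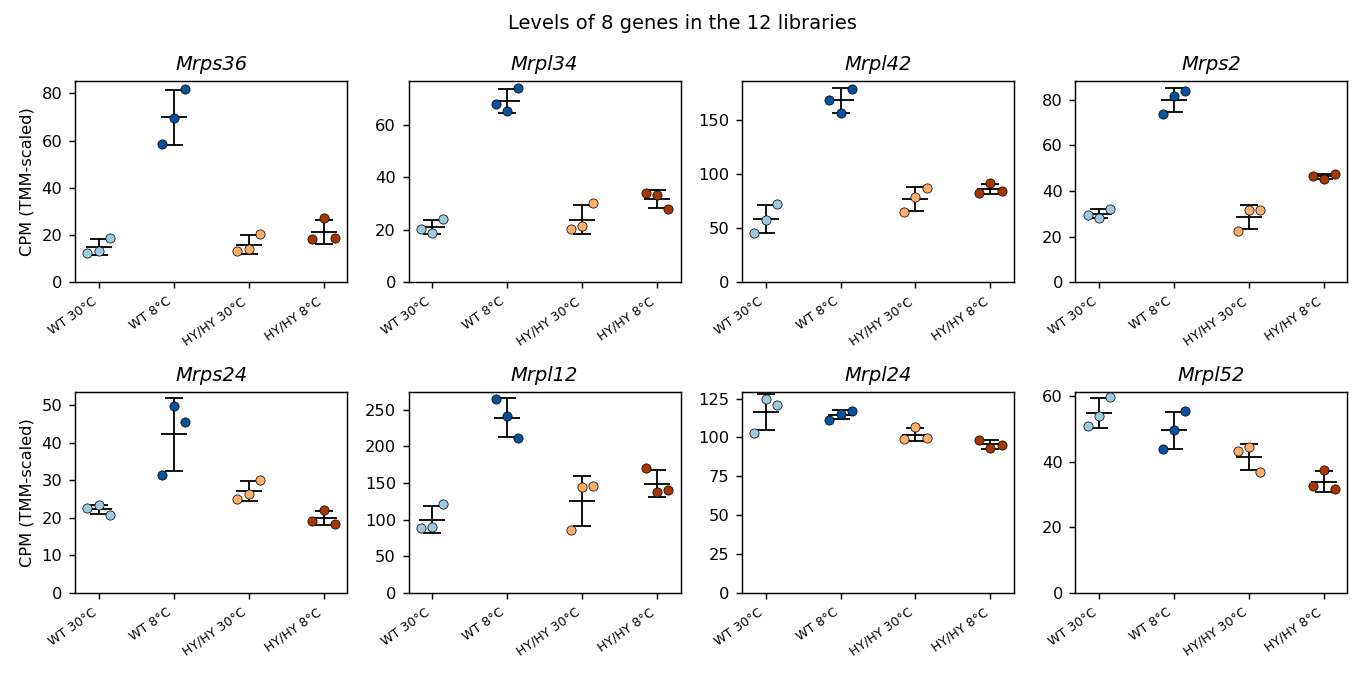
Level in CPM (TMM-scaled library sizes) of 8 genes in the 12 libraries: Mrps36, the strongest response; Mrpl34, Mrpl42, Mrps2 and Mrpl12; Mrps24; and Mrpl24 and Mrpl52, the weakest responses. Points are mice, horizontal bars group means and error bars SD of 3 mice. Mrpl24 and Mrpl52 overlap between 30°C and 8°C in WT mice, whereas the other 6 do not.

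At 8°C the summed levels of both subunits were lower in HY/HY than in WT mice, and 25 of the 76 genes were called lower. The summed large subunit was 2472 to 2581 CPM in HY/HY mice and 3546 to 3735 CPM in WT mice, and the summed small subunit 1090 to 1126 CPM against 1507 to 1659 CPM, without overlap. The 25 genes called lower stood against 0 called higher, where 4.42% of all genes were called lower and 1.51% higher. At an adjusted p alone 38 were lower, against 5.45% of all genes, and for 69 genes every HY/HY mouse lay below every WT mouse, which held for 19.0% of all genes. DESeq2 called 28 lower and 0 higher. At an unadjusted p under 0.05 edgeR had 64 lower and 0 higher, against 2155 and 1545 of all 16540 genes. The median log2 fold change was −0.49, and that of all genes 0.01. Of the large subunit genes 14 of 49 were lower with a median of −0.47, and of the small subunit genes 10 of 26 with a median of −0.51. Without WT replicate 3 at 8°C, and likewise without HY/HY replicate 3 at 8°C, 17 genes were called lower, and with raw library totals 12. That scaling moved the median of all genes to 0.15, and the 76 genes stayed −0.50 from it. Summed macrophage markers were 218 to 298 CPM in HY/HY and 127 to 141 CPM in WT mice at 8°C, with 3 of the 6 called higher. At 30°C they were 189 to 329 CPM in HY/HY and 166 to 169 CPM in WT mice, with 0 called and a median log2 fold change of 0.60. Summed white adipocyte markers at 8°C were 35242 to 46139 CPM in HY/HY and 28895 to 35537 CPM in WT mice. Of these 8 markers 2 were called higher at 8°C, with a median log2 fold change of 0.37. The part of either cell type in the difference at 8°C was not tested.

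Mrps36 differed most between the genotypes at 8°C. It had 18.3, 27.3 and 18.6 CPM in HY/HY mice, all below the lowest WT mouse (58.4 CPM), with a log2 fold change of −1.71 ± 0.23 (edgeR adjusted p = 0.0020). Mrpl34 had 34.1, 33.4 and 27.8 CPM in HY/HY mice, less than the lowest WT value of 65.2 CPM, and a log2 fold change of −1.12 ± 0.16 (edgeR adjusted p = 0.0025). Mrps24 followed with −1.08 ± 0.16 (edgeR adjusted p = 0.0030). Mrpl42 had 82.8, 91.3 and 84.2 CPM in HY/HY mice, again below all WT mice, with −0.96 ± 0.16. The remaining genes with the lowest adjusted p were Mrps16 (−0.89 ± 0.13), a bacterial-type protein of the small subunit, Mrps2 (−0.78 ± 0.13), Mrpl38 (−0.73 ± 0.11), in the central protuberance, and Mrps23 (−0.60 ± 0.10). Mrpl49 (0.13 ± 0.17), Mrpl50 (−0.05 ± 0.19) and Mrpl32 (−0.14 ± 0.14) were the least different and did not pass the test.

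Among the 25 genes called lower at 8°C, 23 were also among the 51 raised by cold in WT mice, that is 23 of 25 and 23 of 51, but both comparisons use the same WT mice at 8°C and so are not independent. The remaining 2 were Mrpl58 and Mrps15, which passed the test of the cold response with a fold under the limit (0.55 ± 0.12 and 0.52 ± 0.15). Mrpl58, a peptidyl-tRNA hydrolase that frees stalled ribosomes and is also built into the large subunit, had 46.2, 49.6 and 53.9 CPM in WT mice and 32.8, 31.2 and 30.8 CPM in HY/HY mice at 8°C. The groups were apart, with a log2 fold change of −0.66 ± 0.12 (edgeR adjusted p = 0.0071). The S18 paralogs had values of −0.50 ± 0.16 (Mrps18a), −0.38 ± 0.16 (Mrps18b) and −0.23 ± 0.17 (Mrps18c), which did not pass the test, and the same holds for Mrps30 (−0.52 ± 0.17) and Mrpl45 (−0.47 ± 0.17). The stalk genes Mrpl10 (−0.43 ± 0.14), Mrpl11 (−0.30 ± 0.14) and Mrpl12 (−0.68 ± 0.20, edgeR adjusted p = 0.064) were not called either.

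**Figure D5:**
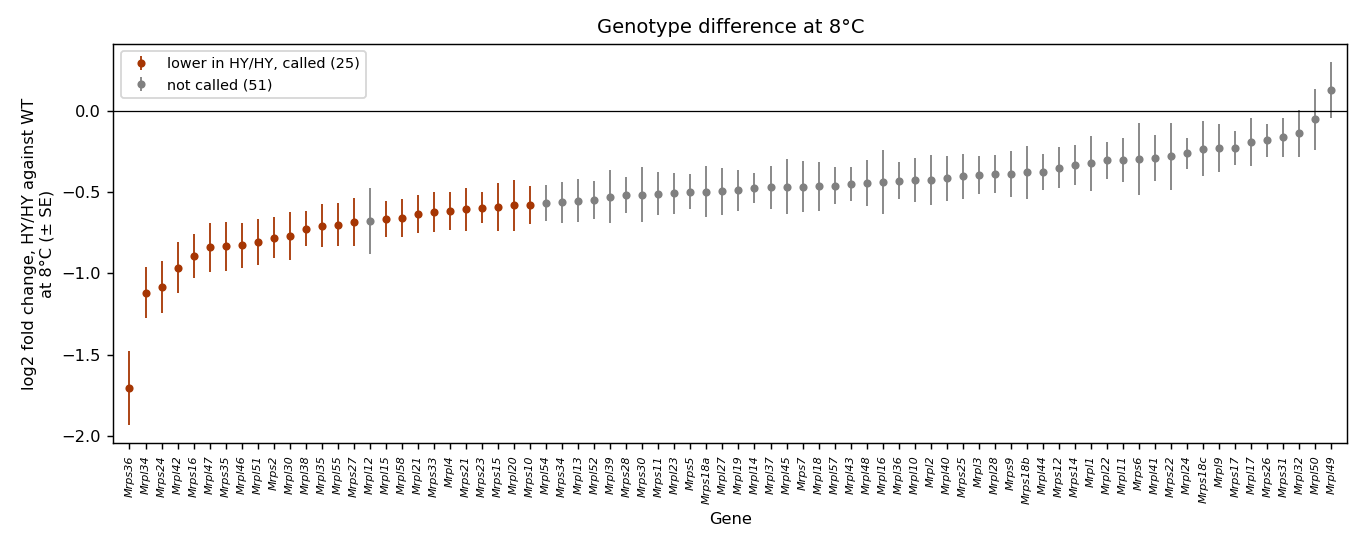
Log2 fold change between HY/HY and WT mice at 8°C for each of the 76 genes, sorted by value, with error bars of 1 SE from the edgeR fit. The 25 coloured genes were called lower in HY/HY mice, and only Mrpl49 lies above 0.

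At 30°C no gene of the set was called between the genotypes. The summed large subunit was 1877 to 2475 CPM in HY/HY mice and 1900 to 2400 CPM in WT mice, so that the range of the WT mice lay within the other. By edgeR 0 genes were higher and 0 lower, where 0.562% of all genes were called higher and 0.441% lower. At an unadjusted p under 0.05, 5 were higher and 2 lower, against 1382 and 1701 of all 16540 genes. DESeq2 also called 0 in each direction. The median log2 fold change was 0.09, and it turned to −0.03 without HY/HY replicate 3 at 30°C. The highest values were those of Mrps22 (0.50 ± 0.21), Mrpl16 (0.49 ± 0.20) and Mrpl42 (0.40 ± 0.16), and the lowest those of Mrpl52 (−0.40 ± 0.12, edgeR adjusted p = 0.10), Mrpl14 (−0.35 ± 0.09, edgeR adjusted p = 0.080) and Mrpl23 (−0.24 ± 0.12). Of the last 3, every HY/HY mouse was below every WT mouse, which held for 3 of the 76 genes and 1757 of the 16540 genes tested. Mrpl52 had 43.1, 44.3 and 36.8 CPM in HY/HY mice at 30°C and 32.6, 37.4 and 31.7 CPM at 8°C, so that it was the member with the lowest value at 30°C and lower in HY/HY mice at 8°C as well (−0.55 ± 0.12, edgeR adjusted p = 0.018), under the fold limit. For Mrpl52 the interaction was −0.15 ± 0.17 and did not pass the test (edgeR adjusted p = 0.73).

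The partners of these proteins were followed by lists made with earlier results of these data known. By cold in WT mice and between the genotypes at 8°C, both ribosomal RNAs moved in the same direction as the RNAs of the protein genes. Their values were larger. mt-Rnr1 had 655, 366 and 665 CPM in WT mice at 30°C and 4833, 4704 and 3458 CPM at 8°C, a log2 fold change of 2.95 ± 0.38 (edgeR adjusted p = 0.00029). In HY/HY mice at 8°C it had 1014, 1055 and 724 CPM, below all WT mice at 8°C, with −2.22 ± 0.37 between the genotypes (edgeR adjusted p = 0.0054). mt-Rnr2 behaved alike, with 2.91 ± 0.37 by cold in WT mice and −1.97 ± 0.35 between the genotypes at 8°C. The interaction was not called for mt-Rnr1 (−1.69 ± 0.50, edgeR adjusted p = 0.12) or mt-Rnr2 (−1.85 ± 0.49, edgeR adjusted p = 0.080). Between the genotypes at 30°C the values were −0.53 ± 0.35 and −0.13 ± 0.34, not called, where the median of the 76 genes was 0.09. Copies of mitochondrial DNA in the nuclear genome share these sequences, and read pairs with more than 1 matching place are absent from the counts, so the levels of both RNAs are uncertain.

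Of 5 ribosomal proteins without an Mrp symbol, 2 rose by cold in WT mice. These were Ptcd3 (1.07 ± 0.17), a repeat protein of the small subunit that went from 40.8 ± 5.31 to 85.9 ± 7.34 CPM (SD, n = 3), and Chchd1 (0.61 ± 0.09). Gadd45gip1 (0.41 ± 0.12) stayed under the fold limit, and Dap3 (0.25 ± 0.13), a GTP-binding protein of the small subunit, did not pass the test. None of the 5 was called between the genotypes at 8°C by edgeR, where 2 were past the adjusted p and 4 had an unadjusted p under 0.05.

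Over all genes tested, 10.3% were higher by cold in WT mice and 4.42% lower in HY/HY mice at 8°C, and the counts of the following lists stand beside these shares without a test. Of 14 mitochondrial translation factors, 9 rose by cold in WT mice with a median of 0.66, and 3 were lower in HY/HY mice at 8°C. Gfm1, the elongation factor that moves the ribosome along, rose from 41.7 ± 5.78 to 127 ± 13.7 CPM (log2 fold change 1.61 ± 0.15). Mtres1, which helps to rescue stalled ribosomes, rose by 1.39 ± 0.14 and was lower at 8°C in HY/HY mice (−0.87 ± 0.14). Tufm, the factor that brings the charged tRNA, was also lower there (−0.73 ± 0.14). Mtrf1l (−0.05 ± 0.16), a release factor, and Mtfmt (−0.16 ± 0.13), which formylates the initiator tRNA, did not pass the test by cold.

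Of 20 mitochondrial aminoacyl-tRNA synthetases and their partners, 8 rose by cold with a median of 0.38, among them the tyrosine enzyme Yars2 (1.01 ± 0.17) and the phenylalanine enzyme Fars2 (0.86 ± 0.13), and 4 were lower in HY/HY mice at 8°C, with the cysteine enzyme Cars2 at −0.81 ± 0.18. Of 26 factors that assemble the ribosome or modify its RNA, 6 rose with a median of 0.31 and 2 were lower in HY/HY mice at 8°C, the latter a share near that of all genes. Mrm3, an rRNA methyltransferase, rose by 1.11 ± 0.21, and the assembly factor Malsu1 was at −0.63 ± 0.17 between the genotypes at 8°C. Ngrn, which acts on the large subunit RNA, had the lowest value by cold at −0.57 ± 0.12 (edgeR adjusted p = 0.0055), a fold that did not pass the limit. For the 76 genes of the set, which include Mrps36, the corresponding counts were 51 and 25.

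By cold in WT mice the genes of the cytosolic ribosome had the opposite direction. Cold lowered 30 of 83 cytosolic ribosomal protein genes and raised 1, where 6.93% of all genes were called lower and 10.3% higher. Their median was −0.53, against 0.75 for the 76 genes of the set. In HY/HY mice the cytosolic median by cold was −0.38, with 79 of 83 values negative and 0 genes called. Between the genotypes at 8°C both sets had medians below 0, with −0.16 for the cytosolic ribosome and −0.49 for the 76 genes. Of the 83 cytosolic genes 76 had negative values, with 1 called lower and 1 higher. At 30°C the cytosolic median between the genotypes was −0.26 (80 of 83 values negative, 2 genes called higher and 0 lower), and that of the 76 genes 0.09. The medians of the interaction were 0.12 for the cytosolic ribosome and −0.55 for the 76 genes. The nuclear OXPHOS subunit genes, whose mitochondrially encoded partners the mitoribosome makes, rose by cold in WT mice in 72 of 81 cases. Their median was 1.49. At 8°C, 70 of 81 were lower in HY/HY mice with a median of −1.0, against 25 and −0.49 for the 76 genes. These medians describe the lists and were not tested against each other.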

How the data were processed

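Libraries were made from RNA of scWAT with a TruSeq RNA kit, 1 library per mouse. The authors used fastp for trimming and STAR for alignment, with mm10 as the genome. The submitters' processing notes also name FastQC and StringTie, and the program that counted is not given in the sources used here. The deposited values were raw counts per gene, given for both strands and for each strand, of which the sense strand was used (95.5% to 96.2% of the stranded counts). Pairs on genes were 36.5% to 44.2% of all pairs and pairs with several matching places 26.7% to 32.2%, and the latter were not in the counts.

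Gene identifiers were matched to symbols through GENCODE vM1 and RefSeq synonyms (32589 of 55401). Mrpl33 was not analysed here. The members and the gene lists were chosen with earlier results of these data known. Named genes are those called (where more than 15 were, the 8 with the lowest adjusted p and the 5 largest changes), the 3 highest and lowest of each comparison, the paralogs, stalk and membrane-side genes, the untested gene, the 2 highest and 2 lowest of a list, and the 5 highest and lowest per length. Others named were chosen after their values were seen.

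Counts were fitted with edgeR 4.0.16 in R 4.3.3 (TMM factors from 0.859 to 1.17, filterByExpr, 4 group means, 8 residual degrees of freedom, quasi-likelihood F test, Benjamini-Hochberg adjustment). The SE was the log2 fold change divided by the square root of F. The common biological coefficient of variation was 20.7%. DESeq2 1.42.0 was an alternative, and the edgeR steps were tested on simulated data. An exact permutation test of 3 against 3 mice cannot go below p = 0.1 and was not used for calls. The p-values measure the spread between mice. Deviations from group means of mice with the same replicate number correlated at 0.11, 0.20 and 0.30 in the HY/HY mice. Each was over 0.1, the rule for pairs, so that the replicate number was tried as a block. In WT mice the correlations were 0.14, −0.04 and 0.13 and did not meet the rule. The main fit had no block, and the sample titles state no pairing between groups.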

Additional observations from a re-analysis of the deposited data

Results flagged for a closer look

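The cold response differed between the genotypes by the test of the interaction itself for 18 members, with these log2 values for the HY/HY response less the WT response. Mrps36, a subunit of the 2-oxoglutarate dehydrogenase complex, was at −1.81. In the large subunit, Mrpl42 was at −1.37, Mrpl34 at −1.30, Mrpl51 at −1.001, Mrpl30 and Mrpl46 at −0.97, Mrpl20 at −0.95, Mrpl47 at −0.92, Mrpl55 at −0.84, Mrpl35 at −0.83, and Mrpl15 and Mrpl54 at −0.76. In the small subunit, Mrps24 was at −1.36, Mrps16 at −0.95, Mrps28 at −0.81, Mrps34 at −0.79, Mrps33 at −0.78 and Mrps23 at −0.59. All 18 were called by edgeR at an adjusted p under 0.05, and none was called under every setting tried. With both strands counted together, Mrps34 was at −1.74 and was not called (edgeR adjusted p = 0.098), and its cold response in WT mice was 0.57, also not called (edgeR adjusted p = 0.23).

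Counts on the strand opposite to a gene were not part of any comparison. For Mrpl47 they made up 69.0% of the stranded pairs over the 12 libraries (11199 pairs against 5035 on the sense strand), while the members together had 2.84% and the median member 0.105%. The other members over 10% were Mrps25 (42.4%), Mrpl19 (14.7%) and Mrpl46 (13.6%). The comparisons of these genes used the sense strand only.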

How the results depend on the processing

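In WT mice, 51 genes were higher in the cold, and library totals gave 26 (leaving out 1 library, 47 to 62). Between the genotypes at 8°C, 25 were lower, 12 with library totals, 38 without the fold limit, and 17 to 26 leaving out 1 library. The cold response of HY/HY mice gave 0, and 1 (Mrps2) with DESeq2, without a filter on low counts and with the replicate block. Leaving out 1 library it gave 0 to 6, with 6 without HY/HY replicate 3 at 30°C and 1 without WT replicate 3 at 30°C. At 30°C the count higher was 0 to 1 leaving out 1 library, with Mrps22 called without HY/HY replicate 1. The interaction (18) gave 33 with DESeq2, 8 with library totals, 28 with the replicate block, and 0 to 34 leaving out 1 library. Apart from these, the replicate block moved no count of members past 1.5 times. Leaving out both WT replicate 2 and HY/HY replicate 3 at 30°C, chosen after seeing the data, gave 6 for the HY/HY cold response and 3 for the interaction.

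Signs turned only near 0. With library totals, Mrpl23 was −0.22 by cold in WT mice, Mrpl50 was 0.0763 between the genotypes at 8°C, and in the interaction Mrpl14 was 0.0723 and Mrpl24 was 0.13. Mrpl24 by cold in WT mice was 0.0176 with DESeq2, 0.0169 with its size factors, 0.0341 without both libraries, and −0.0967 to 0.036 leaving out 1 library. In the interaction Mrpl24 was 0.0375 with both strands and −0.13 to 0.007 leaving out 1 library, and Mrpl49 was −0.11 to 0.24. Mrpl50 at 8°C was −0.18 to 0.0286. The median at 30°C was −0.0834 without both libraries and −0.034 to 0.21 leaving out 1 library. The cause was not tested, except that library totals moved the median of all genes by cold in WT mice from −0.07 to −0.41, which lowers every gene alike. Of the values of single genes under these settings, 2213 kept direction and call, 277 lost the call, 9 gained it and 16 turned sign. Every tested member had at least 200 counts in each library.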
